A study of Mus musculus with 28 samples.

Results

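The Tet2KO-only regions are stretches of the mouse genome in which 5-hydroxymethylcytosine (5hmC) was called in both libraries of Tet2 knockout (Tet2KO) bone marrow cells, in neither library of Tet1 and Tet2 double knockout (DKO) cells and in neither library of wild-type (WT) cells. Peaks of chromosomes 1 to 19 from all 6 lists that shared 1 bp or more were joined into 1 region. The rule picked 1953 of 205075 regions (0.952%), which together cover 1.16 Mb. The members were chosen by the presence and absence of peaks in these 6 lists, so every 5hmC value of theirs below is a description without a test. Most were weak: 1662 of 1953 had a score under 100 in both Tet2KO lists. Peaks of the mark not used by the rule, 5-methylcytosine (5mC), covered 3.57% of their bases. That was close to the 4.0% of bases covered in regions found in DKO alone, against 16.0% in regions found in WT alone. The densest group of Tet2KO-only regions lay on distal chromosome 6.

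The cells came from bone marrow of Tet2KO, DKO and WT mice of the C57BL/6 strain, 6 to 10 weeks old, and the labels name them LK without spelling out the sort. Each genotype had 2 libraries of 5hmC, captured by selective chemical labelling (hMe-Seal). Of 5mC, profiled by methylated DNA immunoprecipitation (MeDIP-seq), there were 1 Tet2KO, 2 DKO and 2 WT libraries. The alleles, the sex and whether the libraries of a genotype came from separate mice are not stated in the labels, and the cell type could not be checked against expression, since the RNA-seq samples were not analysed here. P-values below therefore measure the spread between libraries, which may be technical.

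TET enzymes are dioxygenases that oxidise 5mC to 5hmC, so 5hmC is both a product of TET activity and an intermediate on the way to unmethylated cytosine. In blood progenitors Tet2 is known as a frequent target of loss-of-function mutations in human myeloid disease, and Tet1 and Tet3 can also form 5hmC. A site with 5hmC in Tet2KO but in neither WT nor DKO cells is one where the mark was called with Tet1 intact and Tet2 absent.

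The lists held 137013 and 140491 5hmC peaks in Tet2KO, 130077 and 143960 in DKO, and 128471 and 135265 in WT. The 5mC lists held 120243 to 147934 peaks. Read depth is unknown, and a list shows only where the signal passed the caller's threshold. Regions with a peak in exactly 2 of the 6 lists numbered 28044, spread over 15 possible pairs of lists. The Tet2KO pair held 6.96% of them, close to an even share of 1 in 15. Under the same rule 2251 regions were found in DKO alone (1.1% of all) and 2725 in WT alone (1.33%), so the Tet2KO-only set was the smallest of the 3 single-genotype sets. A further 61524 regions (30.0%) had a peak in all 6 lists.

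Where both had a peak, as the rule asks, the 2 Tet2KO libraries placed their peaks at nearly the same spot in these regions. In 1943 of the 1953 regions each list had a single peak. The bases shared by both peaks made up a median of 77.0% of the region (quartiles 65.8% and 85.5%), and the middles of both peaks lay a median of 44 bp apart. Their scores hardly followed each other, with a Spearman rho of 0.0779 across the 1953 regions, against 0.613 across regions in all 6 lists. The rho values are not like for like, since the scores of the 1953 regions span a narrower range. In Tet2KO replicate 1 their quartiles were 55.5 and 75.5, against 90.3 and 229 for regions in all 6 lists. No rho was taken for DKO-only or WT-only regions. The regions were narrow, with a median of 557 bp, against 618 bp for DKO-only regions, 686 bp for WT-only regions and 1182 bp for regions in all 6 lists. The widest Tet2KO-only region measured 2221 bp and the narrowest 281 bp.

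Their signal was low in both libraries. The authors' score, which has the form of -10 times the log10 of a p-value, had a median of 62.7 in Tet2KO replicate 1 and 63.2 in replicate 2, against 94.9 and 96.2 over all autosomal peaks of those lists. In rank, the middle peak of the set stood at the 21.4th percentile of its list in replicate 1 and at the 20.7th in replicate 2. Only 20 regions (1.02%) reached a score of 100 in both libraries and 271 in 1 of them. DKO-only and WT-only regions were as low in their own lists, with medians of 62.6 and 65.7 in DKO and of 64.5 and 65.4 in WT, so low scores were shared by all 3 single-genotype sets. Regions in all 6 lists had medians of 141 and 142 in the Tet2KO libraries.

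**Figure D1:**
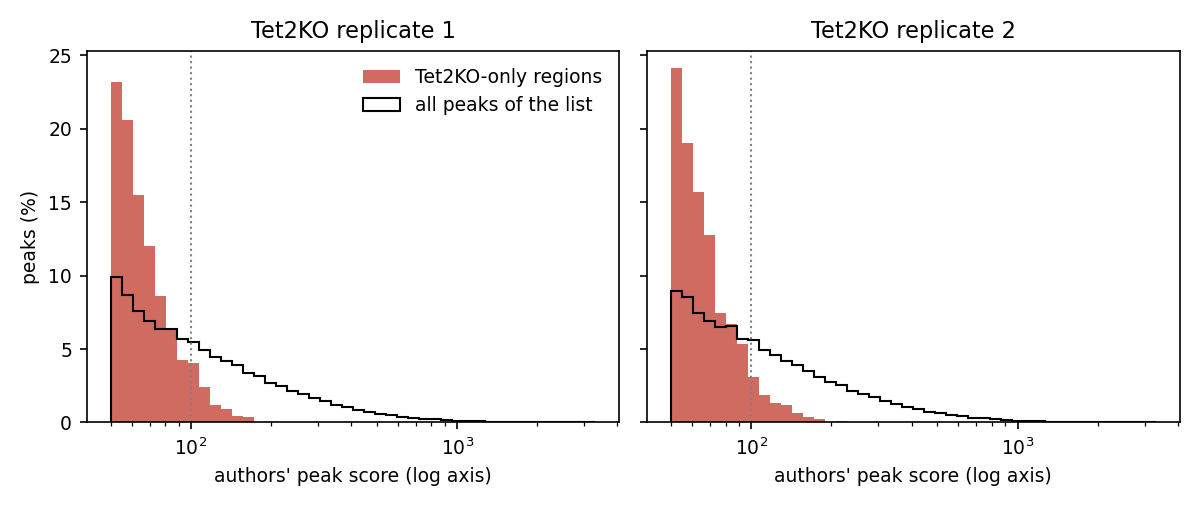
Scores of the peaks of Tet2KO-only regions (filled) and of all peaks (outline) in each Tet2KO 5hmC list, as percent of peaks per bin on a log axis; the dotted line marks a score of 100. The filled bars pile up between 50 and 100 in both libraries, with medians of 62.7 and 63.2.

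The score minimum decided which regions counted. When peaks under 100 were left out of all 6 lists, 956 regions were found in Tet2KO alone, and 20 of these overlapped one of the 1953. The other 936 had no overlap with them, because in the full lists their region also held a DKO or WT peak. When the minimum was applied to the Tet2KO lists only, 20 regions were left.

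Some regions lay at the very edge of the rule, with 134 of the 1953 at most 100 bp from a DKO or WT peak. A region on chromosome 3 at 148529480 to 148529972 was kept with Tet2KO scores of 55.0 and 64.8, although a DKO replicate 2 peak with a score of 75.5 began 1 bp away. Another, on chromosome 8 at 128041300 to 128041939, was kept 5 bp from a WT replicate 1 peak with a score of 168. Just outside lay a region on chromosome 10 at 118386830 to 118387912, with Tet2KO scores of 58.4 and 60.8, which a WT replicate 2 peak with a score of 52.6 overlapped by 8 bp. A region on chromosome 13 at 35834760 to 35835818 was left out for an overlap of 17 bp with a DKO replicate 2 peak. In all, 3833 regions had a peak in both Tet2KO lists and in exactly 1 other list; the overlap with that list had a median of 488 bp and was under 50 bp in 3 of them. The other list was DKO replicate 1 for 1012, DKO replicate 2 for 1352, WT replicate 1 for 644 and WT replicate 2 for 825. The peaks in that single other list were weak as well, with median scores of 63.9 to 67.5.

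The surroundings held 5hmC in every genotype. The nearest DKO or WT peak lay a median of 1360 bp from the edge of a Tet2KO-only region (quartiles 443 and 4089 bp), at most 1 kb away in 824 regions (42.2%) and over 10 kb away in 213 (10.9%). From 1 to 2 kb from the middle, 5hmC peaks covered 12.0% and 11.7% of bases in Tet2KO, 12.2% and 11.8% in DKO, and 12.5% and 12.2% in WT. The genotypes thus lay close together there, with WT replicate 2 level with DKO replicate 1. At the middle the rule fixes the contrast, and within 250 bp the Tet2KO lists covered 88.6% and 85.9% of bases. The distance to the nearest peak of another genotype was a little shorter for DKO-only regions (median 1185 bp) and for WT-only regions (1091 bp). Of the Tet2KO-only regions, 130 (6.66%, exact 95% interval 5.59 to 7.85) had another one within 10 kb, against 6.53% of DKO-only and 8.37% of WT-only regions. The intervals cover counting error only and treat regions as independent.

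Peaks of 5mC, the substrate of TET enzymes, covered a smaller share of the Tet2KO-only regions than of all 5hmC regions in each library. A base outside a peak may still carry 5mC. These peaks covered 3.86% of the bases of Tet2KO-only regions in the Tet2KO library. The share was 3.37% and 3.60% in the DKO libraries, and 3.52% and 3.47% in the WT libraries. The Tet2KO library was the highest of the 5, as it was over all 5hmC regions, where it covered 8.66% against 8.53% and 8.48% in DKO and 8.02% and 8.10% in WT. As 1 library against 4, its excess of 0.375 percentage points had an exact permutation p of 0.2, the smallest that 5 libraries allow. Relative to all regions the coverage was 0.447 times in the Tet2KO library and 0.395 to 0.439 times in the others (exact permutation p = 0.4).

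Over the 5 libraries, 5mC covered 3.57% ± 0.187 of the bases of Tet2KO-only regions and 16.0% ± 0.442 of those of WT-only regions (SD, n = 5 each). The difference of -12.4 points was negative in 5 of 5 libraries, each compared within itself (range -12.8 to -12.0, exact two-sided sign-flip permutation p = 0.063, the smallest possible, and 0.063 after adjustment over 3 comparisons). Regions in all 6 lists had 9.46% ± 0.410 covered, and the difference of -5.90 points was again negative in 5 of 5 libraries (exact permutation p = 0.063, adjusted 0.063). No comparison of this kind can pass 0.05 with 5 libraries. With a minimum score of 100 on the Tet2KO lists alone, 20 regions were left. The difference from WT-only regions was then -2.87 points (exact sign-flip permutation p = 0.125). That from regions in all 6 lists turned to 1.34 points (exact sign-flip permutation p = 0.375). The 20 include the widest region, 2221 bp on chromosome 9 at 3003852 to 3006072, with 17.6% to 63.8% of its bases under 5mC. Its weight in these differences was not tested. Without WT replicate 1 of 5hmC, the difference from WT-only regions was -7.63 points. That setting widens the WT-only set to regions called in replicate 2 of WT, and also widens the Tet2KO-only set, to 2631 regions.

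Tet2KO-only and DKO-only regions lay much closer together in 5mC. DKO-only regions had 4.0% ± 0.14 of bases covered, and the difference of -0.435 points was negative in 5 of 5 libraries but ranged from -0.701 to -0.0483 (exact permutation p = 0.063, adjusted 0.063). Its sign did not hold under other ways to build the sets: it was 0.896 and 0.949 points when either Tet2KO library was left out, and 1.48 points with a minimum score of 200. Without the chromosome 6 span, the chromosome 2 bin and the start of chromosome 9 described below, it was -0.655 points.

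**Figure D2:**
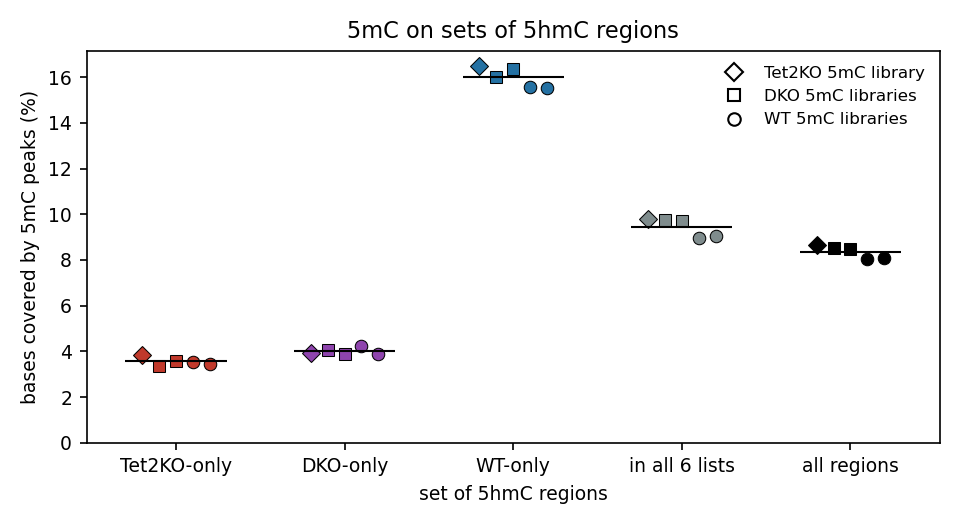
Percent of bases covered by 5mC peaks in 5 sets of 5hmC regions; each symbol is 1 5mC library (diamond Tet2KO, squares DKO, circles WT) and the line is the mean of the 5. Tet2KO-only regions sit at 3.37% to 3.86% in all 5 libraries, near DKO-only regions and below WT-only regions at 15.5% to 16.5%.

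Counted by region, 1713 of the 1953 Tet2KO-only regions (87.7%) had no 5mC peak in any of the 5 lists, against 70.6% of all 5hmC regions, 83.8% of DKO-only regions and 56.7% of WT-only regions. A total of 88 (4.51%, exact 95% interval 3.63 to 5.52) lay on a 5mC region present in all 5 lists, against 12.8% of all 5hmC regions, 5.64% of DKO-only and 23.0% of WT-only regions. The share varied with width. Within the set, the share on such constant 5mC was 1.43% in the narrowest of 4 equal width groups (281 to 483 bp) and 7.99% in the widest (664 to 2221 bp). In a fixed window of 500 bp around the middle of each region, the covered percent differed by -14.7 points from WT-only regions, -7.76 points from regions in all 6 lists and -0.796 points from DKO-only regions, in each case further from 0 than over whole regions. The share on constant 5mC varied less with the lower of the 2 scores, from 3.69% to 5.94% over 4 equal score groups. Regions with a DKO or WT peak within 1 kb had 2.88% of bases covered by 5mC (2.70% to 3.28% over libraries), and those with none within 10 kb had 4.11% (3.20% to 4.87%).

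The 5mC around the regions also differed in shape. Within 250 bp of the middle of Tet2KO-only regions, 5mC covered 3.42% ± 0.247 of bases, from 250 to 500 bp 1.72% ± 0.110, and from 1 to 2 kb 3.13% ± 0.0378 (SD, n = 5 libraries each). The middle exceeded the flank at 1 to 2 kb by 0.293 points, in 5 of 5 libraries (exact sign-flip permutation p = 0.063, the smallest possible, in a comparison chosen after the values were seen). WT-only regions had 18.1% ± 0.521 at the middle and 5.33% ± 0.0615 at the same flank, a gap of 12.8 points. DKO-only regions had a gap of 0.300 points, and regions in all 6 lists one of 6.34 points. Next to the middle, from 250 to 500 bp, DKO-only regions had 2.12% ± 0.0760, so that both knockout-only sets dipped beside the middle, while WT-only regions (6.88%) and regions in all 6 lists (7.30%) were still above their flanks there.

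**Figure D3:**
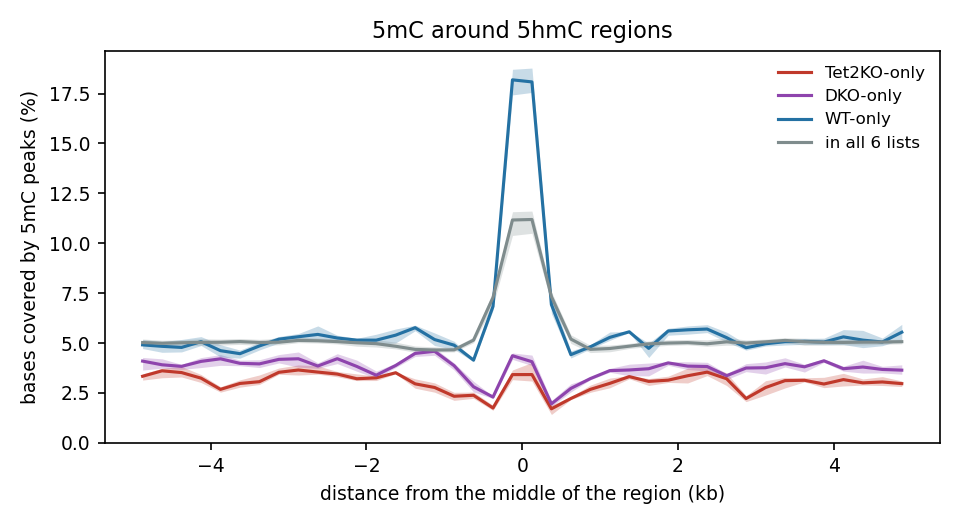
Percent of bases covered by 5mC peaks in 250 bp bins by distance from the middle of 5hmC regions, as the mean (line) and range (band) of the 5 5mC libraries. WT-only regions reach 18.1% at the middle, while Tet2KO-only regions have 3.42% at the middle, 1.72% at 250 to 500 bp and 3.13% at 1 to 2 kb.

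Whether 5mC itself differed between genotypes in these regions was tested with all 5hmC regions in 1 fit. Of 46553 regions with 5mC in at least 2 libraries, 167 were Tet2KO-only regions. That filter left out every region with a 5mC peak in the Tet2KO list alone. The fit therefore could not call a 5mC peak present only in that library. None of the 167 passed in Tet2KO against WT or in DKO against WT (limma, Benjamini-Hochberg adjusted p under 0.05, smallest adjusted p = 0.367 and 0.192), and no region of the whole table did (0.0% called). Calls appeared when a DKO library was left out or the filter was lifted, at shares close to those of all regions or, with the filter lifted, above them. Without DKO replicate 1, 4 of 167 (2.4%) passed in Tet2KO against WT, where 2.64% of all regions did, and without DKO replicate 2, 3 (1.8%) passed in DKO against WT, where 1.57% did. With regions kept on a 5mC peak in 1 library, 23 of 240 (9.58%) passed in Tet2KO against WT, where 5.64% of all regions did, and these 23 are the members with a peak in the Tet2KO list alone. At an unadjusted p under 0.05, 5 of 167 (2.99%) were higher and 5 lower in the Tet2KO library, where 2.81% and 3.42% of all regions were. In DKO, 11 (6.59%) were higher and 7 (4.19%) lower, against 4.4% and 2.8% of all regions.

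The regions with the lowest unadjusted p show how the lists differed. On chromosome 10 at 79899571 to 79900142, 5mC peaks covered 27.6% of the region in Tet2KO, 34.6% and 27.8% in DKO, and none of it in both WT libraries (limma, adjusted p = 0.381). On chromosome 10 at 10191803 to 10192696 they covered 0 in Tet2KO, 24.0% and 37.5% in DKO, and 37.4% and 37.2% in WT, with an adjusted p of 0.367 in limma. On chromosome 10 at 110482816 to 110483270 both DKO libraries had 60.7% and 78.2% covered, and the Tet2KO library and both WT libraries 0. On chromosome 13 at 64124413 to 64124937 both DKO libraries had 0, the Tet2KO library 36.6%, and the WT libraries 77.9% and 55.2%. A 5mC peak in the Tet2KO list alone was found in 23 Tet2KO-only regions (1.18%), against 1.43% of all 5hmC regions. The share of members with a peak in a single other list alone was also under that of all regions, at 0.819% against 1.82% for DKO replicate 1, 0.666% against 1.10% for DKO replicate 2, 0.512% against 0.890% for WT replicate 1 and 0.563% against 1.41% for WT replicate 2. The picture depends on what the count is divided by, since a smaller share of Tet2KO-only than of all 5hmC regions held a 5mC peak. Of the 240 members with any 5mC peak, the 23 with a peak in the Tet2KO list alone made up 9.58%, against 4.87% of the 60206 5hmC regions with any 5mC peak. On the same count, DKO replicate 1 alone made up 6.67% of the 240 members against 6.22% of those regions, DKO replicate 2 alone 5.42% against 3.75%, WT replicate 1 alone 4.17% against 3.03%, and WT replicate 2 alone 4.58% against 4.81%. These shares are descriptions of 1 library each and were not tested.

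The 5 regions with the most 5mC were picked by the mean over the 5 lists, a choice that favours 5mC in every list. All 5 had it in every genotype. On chromosome 5 at 102930674 to 102931261 it covered 100% in Tet2KO, 93.9% and 76.5% in DKO, and 100% in both WT libraries, under Tet2KO 5hmC scores of 71.5 and 69.6. On chromosome 9 at 3029247 to 3029850 all 5 libraries covered 89.1% to 92.4%, and on chromosome 17 at 25336440 to 25337089 they covered 84.3% to 88.9%. The region on chromosome 6 at 83320344 to 83320994 had 65.0% in Tet2KO and 87.1% to 100% in the other 4 libraries. The region on chromosome 3 at 56379181 to 56379766 had 66.2% to 100% and was the most isolated of the set, with the nearest DKO or WT 5hmC peak 528781 bp away.

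Tet2KO-only regions were found on all 19 autosomes and made up 0.779% (chromosome 8) to 1.10% (chromosome 19) of the regions of each chromosome but 1. Chromosome 6 stood apart with 177 of its 11642 regions (1.52%, exact 95% interval 1.31 to 1.76). DKO-only regions made up 1.35% of chromosome 6 and WT-only regions 1.30%, and neither set was highest by such a margin there, since chromosome 9 had 1.39% for DKO-only and chromosome 17 had 1.51% for WT-only.

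**Figure D4:**
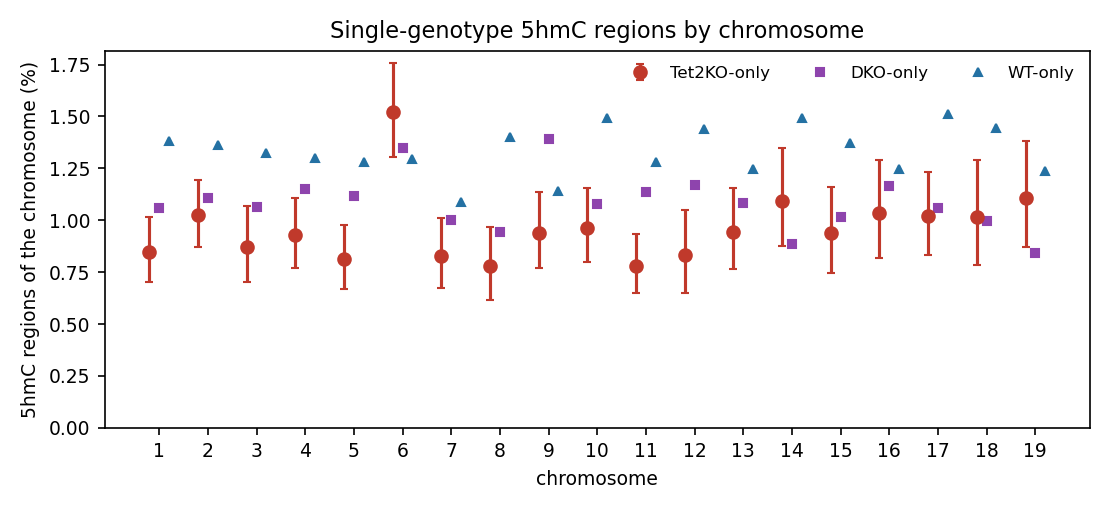
Percent of the 5hmC regions of each autosome found in Tet2KO alone (circles, bars are exact 95% binomial intervals), in DKO alone (squares) and in WT alone (triangles). Tet2KO-only regions reach 1.52% on chromosome 6 and at most 1.10% elsewhere.

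The excess on chromosome 6 lay partly in 1 stretch of 4 Mb. Among 2008 bins of 1 Mb, 944 held no Tet2KO-only region and 34 held at least 5. The densest bin was chromosome 6 at 134000001 to 135000000, with 15 of its 286 regions (5.24%), none found in DKO alone and 2 found in WT alone. The next was chromosome 6 at 137000001 to 138000000, with 8 of 66 (12.1%), and 8 bins with 6 each followed, of which chromosome 18 at 69000001 to 70000000 had the highest share (3.85%). From 134 to 138 Mb of chromosome 6, a span chosen after its values were seen, 32 of 662 regions (4.83%) were found in Tet2KO alone, 8 in DKO alone and 5 in WT alone. The rest of the chromosome had 1.33% before and 1.22% after the span.

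All 6 libraries had dense 5hmC there, and the Tet2KO libraries had the most peaks. They had 489 and 527 peaks in the span, the DKO libraries 446 and 460, and the WT libraries 431 and 448. The covered part of the span was 10.6% and 10.6% in Tet2KO, 10.5% and 9.63% in DKO, and 10.6% and 10.04% in WT, so both Tet2KO libraries lay above both DKO libraries and within the range of the WT libraries. The 32 regions scored a little above the rest of the set, with medians of 65.4 and 73.5, and 5 of them (15.6%) reached 100 in both libraries, against 15 of the other 1921 (0.781%).

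The 5mC library of Tet2KO stood out in the same span, although the rule did not use it. It held 87 of the 681 5mC regions there alone (12.8%), against 6.17% genome-wide. DKO replicate 1 held 66 alone (9.69%, against 7.88% genome-wide), DKO replicate 2 held 21 (3.08%, against 4.32%), WT replicate 1 held 29 (4.26%, against 4.86%) and WT replicate 2 held 30 (4.41%, against 7.15%). In the densest bin the Tet2KO list held 29 such regions and DKO replicate 1 held 26, so the Tet2KO library was not alone in it. On chromosome 6 at 118000001 to 119000000, 16 Mb before, the Tet2KO 5mC list held 35 regions alone where DKO held 10 and 5 and WT 8 and 8, and 5 of 107 5hmC regions (4.67%) were found in Tet2KO alone. Outside the span on chromosome 6, the Tet2KO list alone held 7.82% of 5mC regions before it and 9.44% after it. Both shares were above the 6.17% genome-wide. After the span, 1.22% of 5hmC regions were found in Tet2KO alone. There was a single Tet2KO 5mC library, and its part in the count of Tet2KO-only 5hmC regions was not tested.

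**Figure D5:**
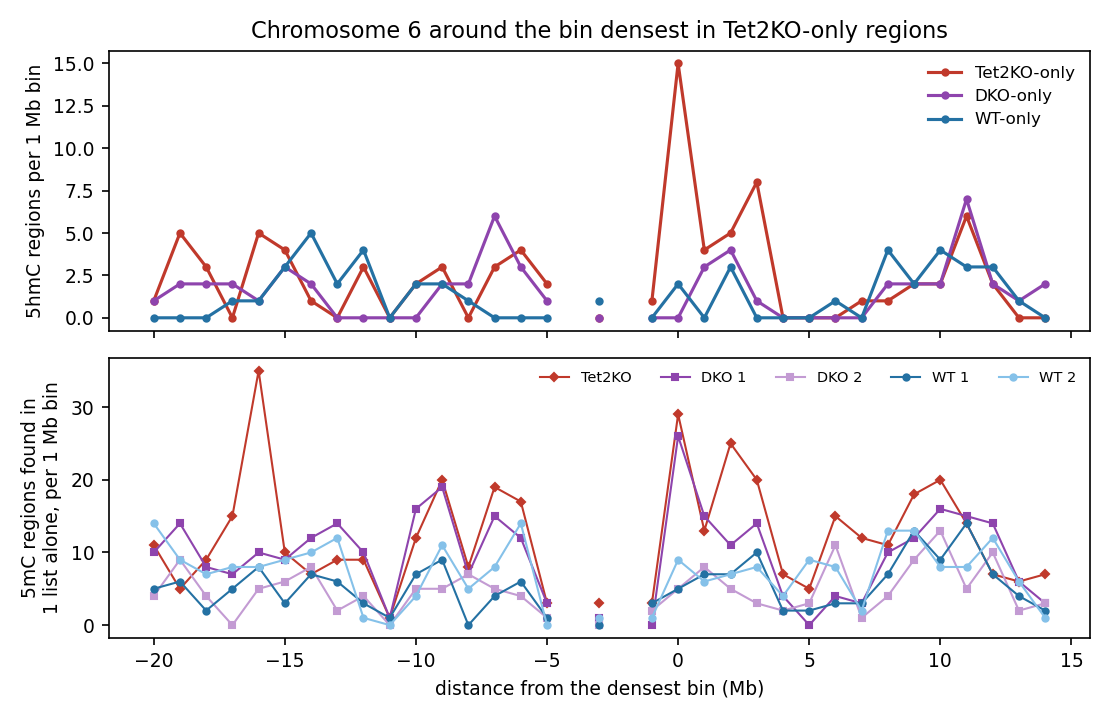
Counts per 1 Mb bin of chromosome 6 by distance from the bin densest in Tet2KO-only regions: 5hmC regions found in 1 genotype alone (top) and 5mC regions found in 1 list alone (bottom). The top panel peaks at 15 Tet2KO-only regions in the densest bin and at 8 in the bin 3 Mb after it, and the Tet2KO 5mC list reaches 29 in the densest bin and 35 in the bin 16 Mb before it.

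The 10 strongest Tet2KO-only regions, ranked by the lower of both list percentiles, lay on chromosomes 6 (4 regions), 4 (2), 9 (2), 2 (1) and 17 (1). The first, on chromosome 6 at 134661481 to 134662239, had scores of 139 and 184 and no 5mC peak in any library. A DKO or WT 5hmC peak lay 185 bp away. On chromosome 17 at 83612446 to 83613575 the scores were 135 and 146, and on chromosome 6 at 135155042 to 135156192 both were 136. That region had 21.2% of its bases under 5mC in Tet2KO, 24.4% and 23.5% in DKO, and 23.8% and 20.2% in WT. The highest single score of the set was 276, in Tet2KO replicate 1 on chromosome 6 at 136886144 to 136886764, where replicate 2 had 126 and a peak of another genotype lay 29 bp away. On chromosome 2 at 163466360 to 163467336 replicate 2 had 227 and replicate 1 had 118. In all, 7 of the 10 had no 5mC peak in any library.

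The start of chromosome 9 held the widest region. Counted from the first peak of each chromosome in any list, which on chromosome 9 began at 2999895, the first Mb held 4 Tet2KO-only regions on chromosome 9 and 15 over all autosomes. The widest region, on chromosome 9 at 3003852 to 3006072, had scores of 213 and 127 and carried 5mC on 17.6% of its bases in Tet2KO, 53.4% and 53.6% in DKO, and 63.8% and 40.5% in WT. The region on chromosome 9 at 3015139 to 3016489 (1351 bp) had 14.4% in Tet2KO, 29.3% and 67.2% in DKO, and 50.6% and 47.8% in WT. In both, the Tet2KO 5mC library was the lowest of the 5. The lists also differed in peaks over this stretch as a whole, with 17 and 15 5hmC peaks in Tet2KO, 8 and 8 in DKO, and 2 and 9 in WT, and with 35 5mC peaks in Tet2KO, 43 and 38 in DKO, and 40 and 39 in WT.

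Other wide regions were strong in 1 library only or in neither. On chromosome 14 at 9063879 to 9065244 (1366 bp) the scores were 53.6 in replicate 1 and 178 in replicate 2, and on chromosome 18 at 83003296 to 83004780 (1485 bp) they were 128 and 53.3. The region on chromosome 5 at 136149173 to 136150534 (1362 bp) had scores of 88.2 and 63.1. The bin with the most 5mC regions in the Tet2KO list alone (103 of 199), on chromosome 2 at 77000001 to 78000000, held 26 and 76 5hmC peaks in Tet2KO, 24 and 28 in DKO, and 21 and 20 in WT, and none of its 105 5hmC regions was found in Tet2KO alone. Without that bin, the chromosome 6 span and the start of chromosome 9, a setting chosen after the values were seen, 1917 regions were left, and the 5mC difference from WT-only regions was -12.7 points.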

How the data were processed

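The deposited files are 1 peak list per library, with the authors' score for each peak. The build mm9 and the tools MACS 1.4.2, Bowtie 0.12.9, CASAVA 1.4, Cuffdiff 2.2.1 and TopHat2 2.0.8 are named, without a role, per the submitters' processing notes. Controls and duplicate handling are not given there. Positions are in mm9, counted from 1. No annotation or sequence of that build was used here, so no gene is named and no sequence printed. The regions, comparisons and lists were chosen with earlier results of these data known. Regions named are the 10 with the highest lower percentile, the 5 widest, the 3 densest 1 Mb bins, the 5 with most 5mC, those with the lowest p in the fit per direction, and those nearest to the edge of the rule. Other regions were chosen after their values were seen. Covered percent was the share of bases under 5mC peaks, compared within each 5mC library by exact sign-flip tests. The genome-wide fit used limma 3.58.1 with trend, on the arcsine of the square root of the covered fraction, with all 5 libraries and no block. For Tet2KO against WT on 46553 simulated regions, it recovered 0% of 200 planted changes of 0.2, 31% of 0.5 and 99% of 0.8 on that scale. The simulated noise was normal with the same spread for every region, unlike the measured covered fractions. These shares therefore do not give the power of the fit on the real lists. There, a member with a DKO difference of 0.989 on that scale had an adjusted p of 0.192 in limma. The Tet2KO 5mC sample is number 2 by title, which was followed, but its list is named 1. No 2 lists shared over 11 identical peaks. Tools were Python 3.11.15, SciPy 1.17.1 and R 4.3.3. Alternatives were other joining rules, score minimums, equal peak numbers, left-out libraries and other filters.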

Additional observations from a re-analysis of the deposited data

Results flagged for a closer look

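The X chromosome lies outside the rule, so it was left out of the region counts above and was looked at separately. How many X peaks each list held is not given here. Of its 1342 merged 5hmC regions, 28 (2.09%) were found in Tet2KO alone, 30 (2.24%) in DKO alone and 13 (0.969%) in WT alone. The share found in Tet2KO alone was above the 0.952% of the autosomes, and that in DKO alone was above their 1.1%. The share in WT alone was below their 1.33%. Regions in all 6 lists made up 10.1% on X, against 30.0% on the autosomes. The sex of the mice is not stated in the labels.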

How the results depend on the processing

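The number of Tet2KO-only regions (1953) depended on the score minimum: it was 956 at a score of at least 100, 378 at 200, and 20 with the minimum of 100 on the Tet2KO lists alone. It was 1485 with peaks up to 500 bp apart joined, 2025 with a shared 0.5 of the shorter peak asked for and 1590 with equal numbers of top peaks. Leaving out 1 5hmC library asks for fewer lists and gave 2631 to 13870 regions: 13199 and 13870 without Tet2KO replicate 1 or 2, and 3010 and 3333 without DKO replicate 1 or 2. The 5mC difference from WT-only regions was negative under all 21 alternatives run, at -7.63 to -12.2 points without 1 5hmC library and -12.3 to -12.5 without 1 5mC library. Its size was -2.87 points with the 20 strongest regions. The difference from regions in all 6 lists (-4.76 to -6.41 without 1 library of either assay) was negative except with those 20, at 1.34 points. The difference from DKO-only regions changed sign in 4 of 21 alternatives, at 1.48 points with a score of at least 200, 7.94 points with the 20, and 0.896 and 0.949 points without either Tet2KO library, and ranged from -1.63 to 0.949 without 1 5hmC library and -0.532 to -0.369 without 1 5mC library. The cause was not tested.

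In the limma fit of 5mC, no member was called under most settings. With regions kept on a 5mC peak in at least 1 library, 23 of 240 members and 3397 of 60206 regions were called in Tet2KO against WT. All 23, and 2847 of the 3397, had a peak in the Tet2KO list alone, where the other 4 libraries have no spread. Without DKO replicate 1, 4 of 167 members (2.4%) were called in Tet2KO against WT, against 2.64% of all regions. Without DKO replicate 2, 3 (1.8%) were called in DKO against WT, against 1.57% of all regions. The range without 1 library was 0 to 4 and 0 to 3. With a replicate block by number, 0 members were called in either contrast (smallest adjusted p = 0.888 and 0.698). The labels do not say that a number marks a shared animal or batch, and same-numbered DKO and WT libraries did not deviate together (correlation -0.0437 over 46553 regions). Tet2KO against WT without its only 5mC library could not be fitted. Depth is unknown, so absence of a weak peak may be a matter of depth.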
